A study of Mus musculus with 10 samples.

Results

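The receptors described here sense adenosine, ATP and related nucleotides at the cell surface, and 10 genes were listed by symbol: *Adora2a*, *Adora2b*, *Adora3*, *P2rx1*, *P2rx4*, *P2rx7*, *P2ry10*, *P2ry12*, *P2ry13* and *P2ry14*. Of these, 9 were found by symbol among the 10431 genes of the deposited expression values. *Adora2b* was not analysed here. The values come from whole blood of 10 female C57BL/6J mice, all kept on the same protocol, in which olanzapine, an antipsychotic drug, was given in a high-fat diet (45% of kcal) for 14 days. Both cohorts were taken from a larger group of treated mice. The 5 that gained the most weight form the AIWG-P cohort (P1, P3, P5, P7 and P8), prone to antipsychotic-induced weight gain. The 5 that gained the least form the AIWG-R cohort (R1, R2, R4, R8 and R9), resistant to it. The mice between these extremes are not part of the values used here. Mice were obtained aged 9 weeks and changed diet at 10 weeks, and the series' design text puts 3 days on the high-fat diet without the drug before the drug diet. According to the study's methods the sequenced blood was drawn before the drug, whereas the sample labels name the olanzapine diet and describe blood from the start and the end, so the time point rests on the methods. The cohorts are extremes of weight gain within a single inbred strain and sex, and no mouse without the drug was compared here.

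Cells that are stressed, activated or damaged release ATP, which enzymes on the cell surface strip of its phosphates to give ADP, AMP and finally adenosine. The P2rx genes encode cation channels that open when ATP binds, the P2ry genes encode G protein-coupled receptors for nucleotides and related ligands, and the Adora genes encode G protein-coupled receptors for adenosine. In blood this system is best known for ADP-driven platelet aggregation, for ATP-driven activation of myeloid cells, and for the dampening of leukocyte activation by adenosine. *P2ry10* belongs to the family by sequence and is known as a receptor for lysophosphatidylserine, and *P2ry14* responds to UDP-glucose.

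Expression is given as the normalized value of each mouse as deposited, in the order P1, P3, P5, P7, P8 and R1, R2, R4, R8, R9. The fold change was fitted with limma on log2 values, after adding a pseudocount of 1, over 10429 genes, and a gene was said to have risen or fallen in AIWG-P at an unadjusted p under 0.05 together with a log2 fold change of at least 0.32 in either direction. All 9 receptors passed the filter on low values. *Adora3* rose, *P2rx7* fell, and the other 7 did not pass both thresholds. Over all genes tested, 7.29% passed both thresholds (4.06% higher and 3.23% lower in AIWG-P), and the 2 receptors are reported as single genes. No receptor had an adjusted p under 0.05: the lowest adjusted p in limma was 0.359 and the highest 0.994, and 0.0% of all genes reached 0.05, while 2 receptors and 12.8% of all genes had an unadjusted p under 0.05. No receptor had cohorts that did not overlap, against 2.55% of all genes. The log2 fold change was positive for 6 receptors and negative for 3, with a median of 0.12 against -0.0075 over all genes, and when each mouse was instead scaled to its total it was negative for all but *Adora3*, in a setting where the median of all genes was -0.41.

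**Figure D1:**
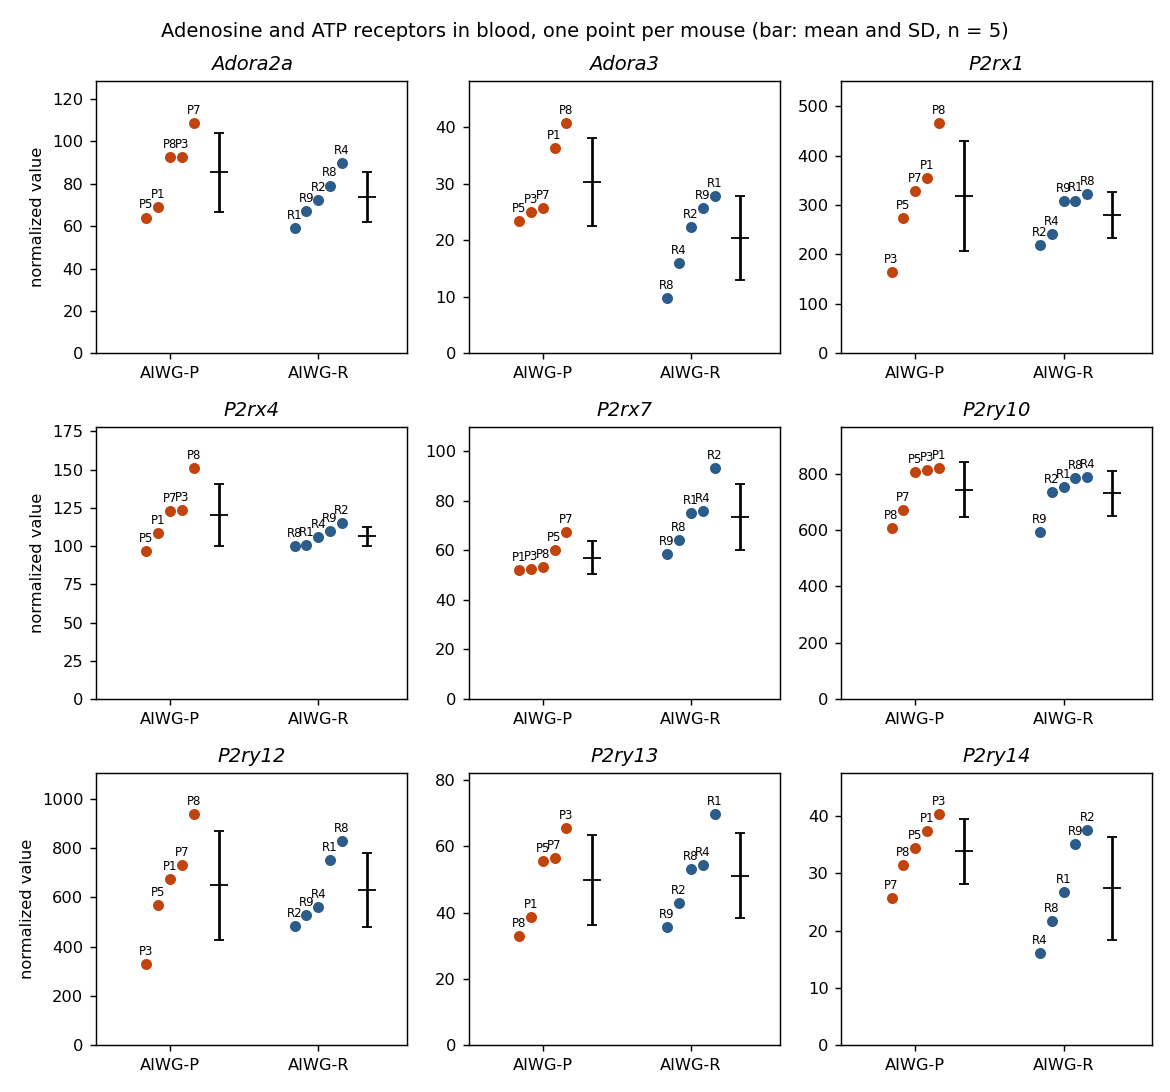
Normalized value of each receptor in each mouse, AIWG-P left and AIWG-R right, sorted by value within a cohort, with the mean and SD of 5 mice as a bar. The cohorts overlap in every panel, and the panels with the clearest offset are *Adora3*, where R8 lies lowest at 9.76, and *P2rx7*, where R2 lies highest at 93.0.

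*Adora3* (Entrez 11542, chromosome 3) encodes a Gi-coupled adenosine receptor that is known in mice for promoting mast cell degranulation and for a part in neutrophil chemotaxis. Its normalized values were 36.3, 25.1, 23.4, 25.7 and 40.8 in AIWG-P mice, against 27.9, 22.3, 16.04, 9.76 and 25.7 in AIWG-R mice. P1 and P8 lay above every AIWG-R mouse, and R2, R4 and R8 lay below every AIWG-P mouse, while the remaining mice of the cohorts overlapped. The mean was 30.3 ± 7.77 in AIWG-P against 20.4 ± 7.42 in AIWG-R (SD, n = 5 each). The fold change was 1.52 (log2 0.60, SE 0.28, 95% interval 0.0028 to 1.20), with an unadjusted p of 0.0491 and an adjusted p of 0.387 in limma. The exact two-sided permutation test of the values gave p = 0.0952, where the smallest p that 5 against 5 mice allow is 0.00794.

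*Adora3* also had the lowest values to rest on and varied the most of the 9 receptors. The values of a mouse, apart from its highest, which were not checked, were whole multiples of a step particular to that mouse, within 0.02 of a step. *Adora3* stood at 30, 23, 30, 26 and 26 steps in AIWG-P mice, against 26, 25, 18, 9 and 41 steps in AIWG-R mice. P8 and R9, which had the highest value and the most steps, differ in step size, 1.57 in P8 against 0.627 in R9, so the order of the mice differs between steps and normalized values. At its median of 26 steps, counting alone would give a coefficient of variation (CV) of 19.6% if each step were a read, and the CV over the 10 mice was 35.0%, above that of 95.8% of all genes. Leaving out P1, P7, P8, R2, R4 or R8 took the unadjusted p of *Adora3* above 0.05, with a log2 fold change between 0.38 without R8 (unadjusted p = 0.129 in limma) and 0.66 without R2 (unadjusted p = 0.0523 in limma). The sign stayed positive in each of these fits. The sample labels hold a number of unknown meaning, 3 in P7, P8 and R1 but 4 elsewhere, and with it as a covariate the log2 fold change of *Adora3* was 0.52 (unadjusted p = 0.0801 in limma). With each mouse scaled to its total it was 0.20 (unadjusted p = 0.558 in limma), which is 0.62 above the median of all genes in that scaling. Of the transcript sequence of *Adora3*, 19.6% of 50-base words also occur in other genes, nearly all of them in *Tmigd3*, in whose span *Adora3* lies on the same strand, so some of its reads may have been shared with that gene.

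*P2rx7* (Entrez 18439, chromosome 5) encodes the ATP-gated channel that opens at high ATP and is known for driving inflammasome activation and interleukin-1 beta release in myeloid cells, and it is also present on T cells. Its normalized values were 52.0, 52.4, 60.2, 67.3 and 53.4 in AIWG-P mice, against 75.1, 93.0, 75.7, 64.0 and 58.3 in AIWG-R mice. P1, P3 and P8 lay below every AIWG-R mouse, R1, R2 and R4 lay above every AIWG-P mouse, and P5, P7, R8 and R9 overlapped. The mean was 57.0 ± 6.63 in AIWG-P against 73.2 ± 13.3 in AIWG-R (SD, n = 5 each). The fold change was 0.788 (log2 -0.34, SE 0.14, 95% interval -0.64 to -0.045), with an unadjusted p of 0.0275 and an adjusted p of 0.359 in limma, and the exact permutation test gave p = 0.0397. Without P1, P3, R1, R2 or R4 it no longer passed both thresholds, with a log2 fold change between -0.33 without R1 (unadjusted p = 0.0526 in limma) and -0.25 without R2 (unadjusted p = 0.0824 in limma). The sign stayed negative in each of these fits. With the red cell markers as a covariate the log2 fold change of *P2rx7* was -0.41 (unadjusted p = 0.0597 in limma). That of *Adora3* was 0.82 (unadjusted p = 0.0533 in limma), so neither passed there. Both fold changes were larger in size than without the covariate. The red cell markers themselves differed between the cohorts, so this fit cannot separate red cells from cohort. With the platelet markers as a covariate both passed, at -0.34 for *P2rx7* (unadjusted p = 0.0300 in limma) and 0.61 for *Adora3* (unadjusted p = 0.0463 in limma).

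**Figure D2:**
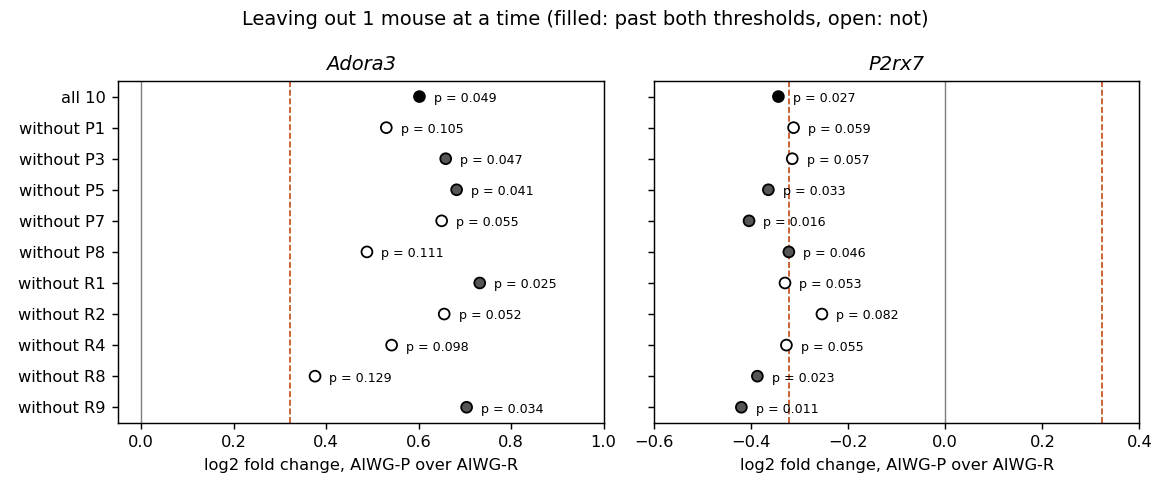
Log2 fold change of *Adora3* and *P2rx7* (AIWG-P over AIWG-R, limma) with all 10 mice and with each mouse left out, with the unadjusted p beside each point. The dashed lines mark the fold threshold (0.32 either way), filled points passed both thresholds, and the sign stayed the same throughout, from 0.38 to 0.73 for *Adora3* and from -0.42 to -0.25 for *P2rx7*.

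The promoters of the receptors that passed both thresholds are shown to give the sequence around their transcription starts, from RefSeq on GRCm38.p6, 5′ to 3′ on the strand of the gene and 300 bases long. Capitals mark matches, on either strand, to the core of a GATA site (AGATAA, in 11.2% of 32851 mouse promoters of this length), an ETS site (AGGAAG, in 35.4%) or a RUNX site (TGTGGT, in 16.8%), factor families known for their roles in blood cells. *Adora3* (chr3:105904171-105904470, plus strand) held 1 ETS and 1 GATA match. Of the starts of *P2rx7*, the outermost (chr5:122643677-122643976, plus strand) held no match, and a second start within the gene (chr5:122650133-122650432, plus strand) held 2 ETS matches and 1 GATA match. A match describes the letters only, and which start was used in these cells was not tested.
Adora3 promoter: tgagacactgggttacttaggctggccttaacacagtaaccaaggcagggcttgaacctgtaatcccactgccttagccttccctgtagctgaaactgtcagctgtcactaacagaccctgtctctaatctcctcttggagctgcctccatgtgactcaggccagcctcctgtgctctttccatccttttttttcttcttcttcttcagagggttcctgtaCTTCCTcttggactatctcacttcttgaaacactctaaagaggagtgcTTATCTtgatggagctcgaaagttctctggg
P2rx7 promoter, outermost start: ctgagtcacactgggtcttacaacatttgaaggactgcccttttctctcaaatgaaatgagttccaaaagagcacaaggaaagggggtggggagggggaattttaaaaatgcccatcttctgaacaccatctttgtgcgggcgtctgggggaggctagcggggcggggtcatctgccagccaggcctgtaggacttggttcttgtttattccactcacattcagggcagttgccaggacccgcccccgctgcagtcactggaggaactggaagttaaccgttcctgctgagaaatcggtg
P2rx7 promoter, second start: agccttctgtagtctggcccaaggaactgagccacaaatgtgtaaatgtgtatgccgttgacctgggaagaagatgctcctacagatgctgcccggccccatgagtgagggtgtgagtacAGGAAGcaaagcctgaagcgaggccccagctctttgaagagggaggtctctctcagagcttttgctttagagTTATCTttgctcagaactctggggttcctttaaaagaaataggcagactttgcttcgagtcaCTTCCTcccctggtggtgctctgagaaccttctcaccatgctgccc

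Among the other ATP-gated channels, *P2rx4* (Entrez 18438) is known from macrophages and endothelium and lies next to *P2rx7* on chromosome 5. Its values were 109, 123, 96.9, 123 and 151 in AIWG-P mice, against 101, 115, 106, 99.8 and 110 in AIWG-R mice. P3, P7 and P8 lay above every AIWG-R mouse and P5 below, with an SD of 20.2 in AIWG-P against 6.43 in AIWG-R. The log2 fold change was 0.17 (95% interval -0.085 to 0.42, unadjusted p = 0.177 and adjusted p = 0.536 in limma). *P2rx1* (Entrez 18436, chromosome 11), the channel through which ATP triggers fast calcium entry in platelets, had values of 355, 164, 274, 329 and 467 in AIWG-P mice, against 309, 218, 241, 322 and 308 in AIWG-R mice. P8 was the highest and P3 the lowest of all mice, so AIWG-P spanned the whole range of AIWG-R. The log2 fold change of *P2rx1* was 0.12 (95% interval -0.36 to 0.60, adjusted p = 0.827 in limma), an interval wide enough to hold the fold change of *Adora3*.

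*Adora2a* (Entrez 11540, chromosome 10), the Gs-coupled adenosine receptor that raises cAMP and restrains leukocyte activation, had values of 68.9, 92.7, 64.1, 109 and 92.7 in AIWG-P mice, against 59.0, 72.4, 90.0, 79.2 and 67.1 in AIWG-R mice. P3, P7 and P8 lay above every AIWG-R mouse, but P1 and P5 lay among them. The log2 fold change was 0.20 (SE 0.16, 95% interval -0.15 to 0.55), with an unadjusted p of 0.234 and an adjusted p of 0.590 in limma.

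The ADP receptors *P2ry12* and *P2ry13* and the UDP-glucose receptor *P2ry14* lie together on chromosome 3, inside the span of *Med12l* on the opposite strand, with no exonic bases shared with it. *P2ry12* (Entrez 70839), the platelet receptor blocked by clopidogrel, had values of 673, 331, 570, 731 and 938 in AIWG-P mice, against 752, 485, 559, 829 and 528 in AIWG-R mice. As with *P2rx1*, P8 was the highest and P3 the lowest, and the log2 fold change was -0.0071 (95% interval -0.52 to 0.50, adjusted p = 0.994 in limma). *P2ry13* (Entrez 74191), a Gi-coupled ADP receptor of leukocytes, had values of 38.7, 65.5, 55.5, 56.4 and 32.99 in AIWG-P mice, against 69.7, 42.9, 54.3, 53.1 and 35.7 in AIWG-R mice, with a log2 fold change of -0.047 (adjusted p = 0.937 in limma). The cohorts of *P2ry13* covered almost the same range, with P8 lowest and R1 highest. *P2ry14* (Entrez 140795) had values of 37.5, 40.4, 34.4, 25.7 and 31.4 in AIWG-P mice, against 26.8, 37.5, 16.04, 21.7 and 35.1 in AIWG-R mice. Only R4 and R8 lay below every AIWG-P mouse, and although the fold change of 1.27 (log2 0.34) was beyond the fold threshold, the unadjusted p was 0.161 and the adjusted p 0.520 in limma. *Med12l*, on the other strand, averaged 20.1 ± 3.82 in AIWG-P against 25.02 ± 7.26 in AIWG-R (SD, n = 5 each; unadjusted p = 0.236 in limma).

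*P2ry10* (Entrez 78826, X chromosome), the lysophosphatidylserine receptor known from lymphocytes, varied least of the 9 receptors. Its values were 818, 814, 806, 670 and 608 in AIWG-P mice, against 752, 733, 788, 784 and 593 in AIWG-R mice. P8 and R9 were the lowest of their cohorts and close to each other, and the others lay between 670 and 818. The log2 fold change was 0.023, the interval of -0.21 to 0.26 was the narrowest of the 9 receptors, and the CV over the 10 mice was 11.5% against a median of 15.3% over all genes.

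**Figure D3:**
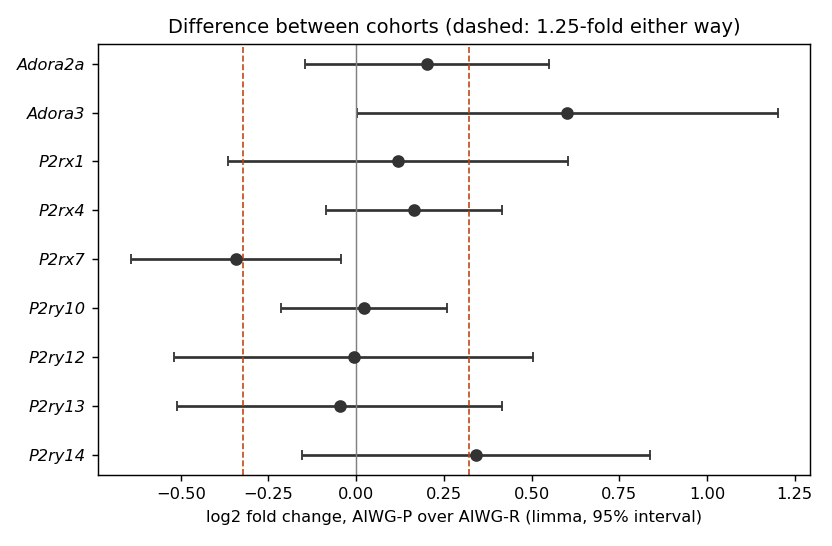
Log2 fold change of each receptor (AIWG-P over AIWG-R, limma) with its 95% interval, and dashed lines at the fold threshold of 0.32 either way. The intervals of *Adora3* and *P2rx7* exclude 0 and those of the other 7 receptors include it, and the widest interval is that of *Adora3*, from 0.0028 to 1.20.

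To set the receptors beside each other, each value was divided by the exon length of the gene (GENCODE vM21 basic, union of exons), which gives a normalized value per kb. *P2ry12* averaged 261.9 ± 73.5 per kb and *P2ry10* 251.2 ± 28.8 per kb (SD, n = 10), and *P2ry12* was the higher of the pair in 5 of 10 mice, so their order is not set. *P2rx1* followed at 120.2 ± 33.3 per kb, *P2rx4* at 42.0 ± 5.91 per kb, *Adora2a* at 30.6 ± 6.15 per kb and *P2ry13* at 20.0 ± 4.93 per kb. *P2ry10*, *P2rx1*, *P2rx4* and *P2ry13* each exceeded the next receptor in all 10 mice, and *Adora2a* exceeded *P2ry13* in 9. The lowest were *P2rx7* at 11.8 ± 2.37 per kb, *Adora3* at 10.0 ± 3.52 per kb and *P2ry14* at 9.88 ± 2.53 per kb. *P2rx7* was above *Adora3* in 7 mice and *Adora3* above *P2ry14* in 5, so these 3 levels do not separate beyond their spread. The receptor best known from platelets and the receptor best known from lymphocytes had the highest levels per length in whole blood.

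**Figure D4:**
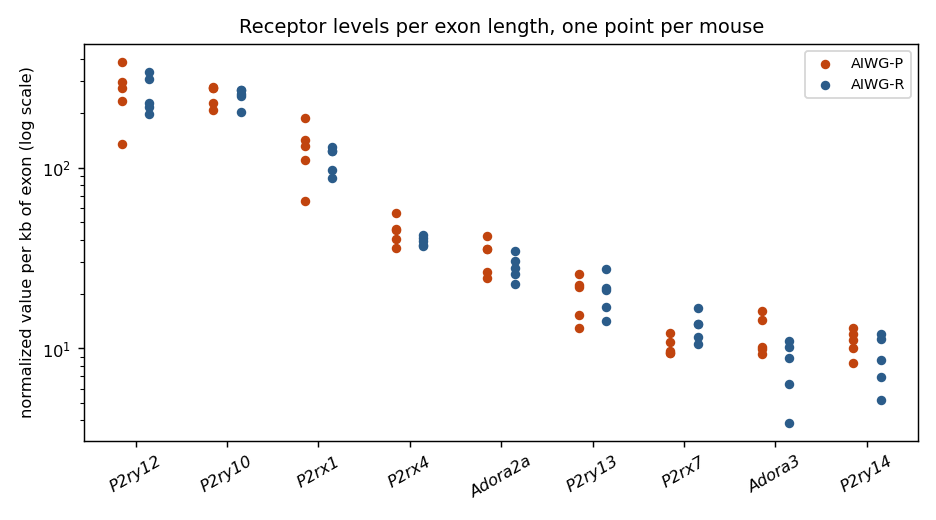
Normalized value per kb of exon for each receptor and mouse on a log scale, AIWG-P left of AIWG-R within each receptor, receptors ordered by their mean over 10 mice. Levels run from *P2ry12* and *P2ry10* at 261.9 and 251.2 per kb to *Adora3* and *P2ry14* at 10.0 and 9.88 per kb.

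Between mice, *P2rx1* and *P2ry12* moved together and with the platelet markers. The mean log2 value of a list of 12 platelet genes was 9.54, 8.21, 9.36, 9.62 and 10.03 in AIWG-P mice, against 9.61, 9.19, 9.30, 9.62 and 9.17 in AIWG-R mice, with P3 lowest and P8 highest as in both receptors. *Pf4*, the platelet factor 4 gene on that list, had values of 1836, 659, 1283, 1914 and 3153 in AIWG-P mice, against 1776, 1201, 1347, 1781 and 1196 in AIWG-R mice. No difference between the cohorts was detected in the list (exact permutation p = 0.952 with 5 mice each), and none of its genes passed both thresholds or was at 0 in any mouse. In whole blood, fewer cells of a type and less RNA per cell cannot be told apart.

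Each receptor was correlated with each of 10 cell type lists over the 10 mice, which makes 90 pairs, and 3 pairs had an adjusted p under 0.05. *P2ry12* followed the platelet list with a Pearson r of 0.965 (permutation p = 2.0e-05, adjusted p = 0.0018) and a Spearman rho of 0.952 (permutation p = 0.00012, adjusted p = 0.0108). Within the cohorts, with each cohort mean removed, r was 0.965 (adjusted permutation p = 0.0225), and without P3 and P8, the mice farthest from the median of the list, it was 0.964 (adjusted permutation p = 0.0378). The relation of *P2ry12* to the platelet list held in each of these settings. With the T cell list *P2ry12* had an r of 0.768 (adjusted permutation p = 0.238), and with the NK cell list 0.695 (adjusted permutation p = 0.312). Neither passed after adjustment. *P2rx1* followed the platelet list with an r of 0.914 (permutation p = 0.00043, adjusted p = 0.0129) and a rho of 0.855 (permutation p = 0.00287, adjusted p = 0.0861). Within the cohorts it had an r of 0.930 (adjusted permutation p = 0.120), and without P3 and P8 an r of 0.699 (permutation p = 0.0611), so without those mice the relation was weaker and did not pass.

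*P2rx1* followed the T cell list as closely, with an r of 0.914 (permutation p = 0.00036, adjusted p = 0.0129) and a rho of 0.927 (permutation p = 0.00032, adjusted p = 0.0144). Its r was 0.922 within the cohorts (adjusted permutation p = 0.120) and 0.837 without P3 and P8 (permutation p = 0.00655, adjusted p = 0.147), neither of which passed after adjustment. The platelet and T cell lists themselves had an r of 0.764 over the 10 mice and of 0.404 without P3 and P8, given as a description, so the part of each list in the *P2rx1* values was not tested. Between the receptors, *P2rx1* and *P2ry12* had the highest r, 0.917 over 10 mice and 0.930 with the cohort means removed, and the next was 0.644 between *Adora2a* and *P2rx4*. *P2rx4* and *P2ry10* had the lowest, -0.57. These r values describe genes measured in the same 10 libraries.

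**Figure D5:**
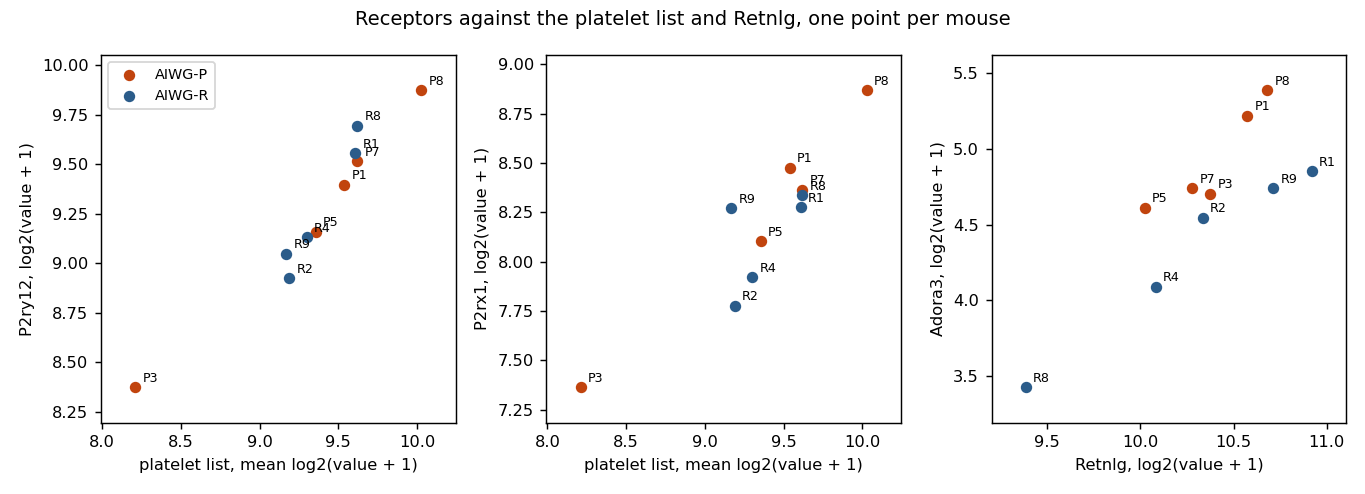
Log2 value of *P2ry12* and *P2rx1* against the mean log2 value of the platelet list, and of *Adora3* against *Retnlg*, with one point per mouse (orange AIWG-P, blue AIWG-R). *P2ry12* and *P2rx1* run along the platelet list from P3 to P8 (r = 0.965 and 0.914), and *Adora3* runs along *Retnlg* within each cohort, with R8 lowest.

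The starts of *P2ry12* and *P2rx1* are shown because their levels moved together, with the same source, length and capitals as above. *P2ry12* (chr3:59262936-59263235, minus strand) held 1 ETS match, and *P2rx1* (chr11:72998895-72999194, plus strand, a start inside the annotated gene) held 1 GATA match, so no searched motif was shared by both windows.
P2ry12 promoter: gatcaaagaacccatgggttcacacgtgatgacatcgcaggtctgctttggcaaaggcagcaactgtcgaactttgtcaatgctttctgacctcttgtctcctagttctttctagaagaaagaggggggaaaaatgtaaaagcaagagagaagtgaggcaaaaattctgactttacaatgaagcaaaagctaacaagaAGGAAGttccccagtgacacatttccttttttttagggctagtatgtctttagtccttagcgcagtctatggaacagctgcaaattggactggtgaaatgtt
P2rx1 promoter: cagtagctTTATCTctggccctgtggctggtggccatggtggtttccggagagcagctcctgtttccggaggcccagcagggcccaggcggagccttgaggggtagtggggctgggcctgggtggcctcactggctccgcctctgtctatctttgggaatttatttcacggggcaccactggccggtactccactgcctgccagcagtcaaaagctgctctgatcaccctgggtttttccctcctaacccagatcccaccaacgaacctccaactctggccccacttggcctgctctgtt

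For each receptor the genes most alike over the 10 mice were taken as those with the highest r of log2 values after removing the cohort means, as a description. For *P2ry12* these were *Tpm4* (r = 0.996), a tropomyosin, *Rgs18* (0.992), a regulator of G protein signalling abundant in platelets, and *Ctla2b* (0.990), and for *P2rx1* they were *Gm6634* (0.986), *Pafah2* (0.984) and *Rab6b* (0.983). For *Adora3* they were *Retnlg* (0.963), which encodes a resistin-like protein of neutrophils, *Basp1* (0.939) and *Zfp846* (0.932). *Retnlg* had values of 1523, 1326, 1040, 1240 and 1639 in AIWG-P mice, against 1937, 1290, 1082, 668 and 1678 in AIWG-R mice, and did not pass the thresholds between the cohorts (log2 fold change 0.099, unadjusted p = 0.684 in limma). R8 was lowest in both genes, while R1 and R9 exceeded every AIWG-P mouse in *Retnlg* but not in *Adora3*. For *P2rx7*, *Ceacam1* (0.936) and *Pex19* (0.892) were among the most alike.

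The genes most alike to the remaining receptors had lower r values than those of *P2ry12* and *P2rx1*, with a highest r of 0.887 to 0.964. These were *Zkscan6* (0.887), *Cept1* and *Sat1* for *Adora2a*, *Nt5c3b* (0.944), a nucleotidase, *Ppapdc1b* and *Upf3a* for *P2rx4*, *Tceb3* (0.964), *Mroh2a* and *Blcap* for *P2ry10*, *Gad1-ps* (0.947), *Rbm47* and *Dock4* for *P2ry13*, and *Slc4a2* (0.916), *Fubp3* and *Tom1l2* for *P2ry14*. These names describe likeness among 10 mice only, and were picked as the highest r over all genes tested.

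Cell type markers moved with the cohorts mainly for red cells, whose list of 12 genes had 11 that rose and a mean log2 value 0.72 higher in AIWG-P (exact permutation p = 0.0238). Its summed value ranged from 40750 to 68025 in AIWG-P mice and from 27149 to 56330 in AIWG-R mice. The neutrophil list, of which 9 of 12 genes were measured, had 1 gene that rose and 8 with a positive log2 fold change. Its mean log2 value was 0.31 higher in AIWG-P (exact permutation p = 0.198). Its summed values were 10829 to 15502 in AIWG-P against 8994 to 19975 in AIWG-R. R1 alone gave the high end of AIWG-R, and R2, R4, R8 and R9 (9926, 8994, 9208 and 9723) lay below every AIWG-P mouse. The eosinophil list, with 4 of 8 genes measured, summed to 539 to 685 in AIWG-P against 417 to 742 in AIWG-R (exact permutation p = 0.698), and the basophil and mast cell list, with 3 of 6 measured, to 90.6 to 179 in AIWG-P against 124 to 144 in AIWG-R (exact permutation p = 0.976). Beside these, *Adora3* had an r of 0.637 with the eosinophil list (adjusted permutation p = 0.439), which was 0.329 without R8 and R9, and an r of 0.504 with the neutrophil list (permutation p = 0.137, adjusted p = 0.605). With the basophil and mast cell list its r was 0.358 (permutation p = 0.278, adjusted p = 0.715), and -0.043 without P3 and P8. *P2rx7* had an r of -0.359 with the red cell list (adjusted permutation p = 0.715) and a rho of -0.661 (adjusted permutation p = 0.553). That r was -0.789 without P1 and R9 (adjusted permutation p = 0.290), but 0.182 with the cohort means removed. With the T cell list *P2rx7* had an r of -0.402, and -0.732 without P3 and P8 (adjusted permutation p = 0.444). No measured gene of the 10 lists was at 0 in any mouse. The monocyte list had 9 of 10 genes with a positive log2 fold change, and its mean log2 value was 0.15 higher in AIWG-P (exact permutation p = 0.127). *Adora2a* had an r of 0.759 with the monocyte list (adjusted permutation p = 0.238), which was 0.534 without P3 and P7. Of the remaining lists, 1 NK cell gene fell. No gene of the monocyte, B cell, T cell or dendritic cell lists passed both thresholds. The red cell list differed between the cohorts, so the fit with it as a covariate cannot separate red cells from cohort. Apart from the platelet covariate given above, the part of these cells in the *Adora3* and *P2rx7* differences was not tested.

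Of 87 other genes listed for purinergic signalling, 63 were measured, 1 rose and 1 fell, beside 4.06% and 3.23% of all genes. The 7 other measured receptors were *P2ry1*, *P2ry2*, *P2ry6*, *P2ry10b*, *Gpr34*, *Gpr171* and *Lpar6*. Not all of them are nucleotide receptors, and none passed. The one with the smallest p, *P2ry10b* (listed as *A630033H20Rik*), averaged 138.5 ± 22.6 in AIWG-P against 160.3 ± 18.6 in AIWG-R (SD, n = 5 each; unadjusted p = 0.104 in limma), and 3.79% of the 50-base words of *P2ry10* transcripts are shared with it. The ADP receptor *P2ry1* averaged 53.5 ± 6.73 in AIWG-P against 55.6 ± 11.6 in AIWG-R, and the nucleotide receptor *P2ry2* 28.2 ± 4.47 in AIWG-P against 28.2 ± 5.60 in AIWG-R. The median log2 fold change of these 7 receptors was -0.012.

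Among 18 measured enzymes listed for nucleotide breakdown or adenosine handling, which include the peptidase *Dpp4*, *Pnp* rose. *Pnp* encodes the purine nucleoside phosphorylase that takes up the inosine made from adenosine. It had values of 288, 285, 255, 365 and 380 in AIWG-P mice, against 253, 276, 272, 219 and 203 in AIWG-R mice. All AIWG-P mice but P5 lay above every AIWG-R mouse, and the log2 fold change was 0.35 (unadjusted p = 0.0161, adjusted p = 0.343 in limma, exact permutation p = 0.0397). Without P7, P8, R8 or R9 it was between 0.28 and 0.32 and no longer past the fold threshold, and with red cell markers as a covariate it was 0.32 (unadjusted p = 0.107 in limma). With each mouse scaled to its total, *Pnp* was at -0.054, which is 0.36 above the median of all genes there. *Entpd4*, an intracellular nucleotidase of the Golgi and lysosomes, fell, with values of 93.1, 99.3, 86.0, 78.2 and 73.8 in AIWG-P mice, against 99.8, 120, 112, 121 and 97.2 in AIWG-R mice. Only P3 overlapped with AIWG-R, and the log2 fold change of *Entpd4* was -0.35 (unadjusted p = 0.00746, adjusted p = 0.325 in limma, exact permutation p = 0.0159). Without P7, P8 or R8 it was between -0.32 and -0.30, short of the fold threshold, as it was at -0.31 with the label number as a covariate, where *Pnp* was at 0.30. With red cell markers as a covariate *Entpd4* was at -0.51 (unadjusted p = 0.00432 in limma). Both genes have a near-identical copy in the mouse genome, *Pnp2* and *Entpd4b*, so that reads may have been split between copies.

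The surface enzymes that turn ATP into adenosine did not pass. *Entpd1* (CD39), which degrades ATP and ADP, averaged 274.3 ± 46.5 in AIWG-P against 239.7 ± 37.3 in AIWG-R (SD, n = 5 each; unadjusted p = 0.176 in limma), and *Nt5e* (CD73), which makes adenosine from AMP, 80.9 ± 12.8 in AIWG-P against 80.9 ± 16.2 in AIWG-R. Adenosine deaminase, *Ada*, averaged 19.5 ± 7.08 in AIWG-P against 15.2 ± 0.790 in AIWG-R, and adenosine kinase, *Adk*, 57.7 ± 5.38 in AIWG-P against 50.2 ± 4.35 in AIWG-R, and neither passed. The 18 enzymes had a median log2 fold change of -0.033.

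None of 8 measured genes of adenosine transport and ATP release passed both thresholds. *Panx1*, the pannexin channel that releases ATP, had the smallest p, with 162.5 ± 21.4 in AIWG-P against 136.5 ± 15.7 in AIWG-R (SD, n = 5 each), a log2 fold change of 0.25 and an unadjusted p of 0.0443 in limma. None of 30 measured genes of G proteins and cAMP signalling passed either. There the smallest p belonged to *Adcy7*, the adenylyl cyclase abundant in blood cells, which averaged 1305 ± 174 in AIWG-P against 1592 ± 48.0 in AIWG-R. The cohorts of *Adcy7* did not overlap, as in 2.55% of all genes, but its log2 fold change of -0.30 was under the fold threshold (unadjusted p = 0.00809 and adjusted p = 0.325 in limma). The median log2 fold change was 0.037 for transport and release and 0.011 for G proteins and cAMP. Of the genes next to or overlapping the receptors, 8 were measured and none passed, and the smallest p was that of *Specc1l* near *Adora2a* (log2 fold change -0.22, unadjusted p = 0.151 in limma).

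The deposited values, rounded to whole steps, summed to between 24447563 and 32293924 steps per mouse in AIWG-P and to between 23810098 and 28093845 in AIWG-R. The median number of steps behind the other receptors was 28.5 for *P2ry14*, 57 for *P2ry13*, 69 for *P2rx7*, 81.5 for *Adora2a*, 116 for *P2rx4*, 295.5 for *P2rx1*, 664.5 for *P2ry12* and 734.5 for *P2ry10*. *P2rx1* and *P2ry12*, which had many steps, nonetheless had CVs over the 10 mice of 27.7% and 28.1%, above those of 88.7% and 89.3% of all genes.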

How the data were processed

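RNA of whole blood was sequenced from TruSeq libraries on an Illumina NovaSeq. Bowtie2 was used by the authors to align reads to mouse transcripts, RSEM to count them by gene and limma to compare the cohorts, the submitters' processing notes name mm9, with versions and normalization not given in the sources used here. In the deposited file each mouse has 1 normalized signal value per gene, beside the authors' mean per cohort. The deposited signed fold score, log2 ratio of means, p-values and q-values come from the authors' own comparison and were not used. No count model was used, because only the step of each mouse, not its reads, could be read from the values. All columns with mouse values entered.

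Genes above 1 in at least 5 of 10 mice were kept, a pseudocount of 1 was added, and log2 values were modelled in limma 3.58.1 (mean-variance trend, R 4.3.3) without covariates, and p-values were adjusted by Benjamini-Hochberg over all 10429 genes. The fit was tested on simulated data. Single values were compared by the exact two-sided permutation test, and correlations by a permutation test with 100000 resamples (scipy 1.17.1). Genes were matched to RefSeq by Entrez ID, 10368 of 10431. The receptors and gene lists were chosen with earlier results of these data known. Genes named besides the receptors are those of each pathway list past both thresholds or, where none was, with the smallest p, and the 3 genes most alike to each receptor, of which 1 is not reported here; *Pf4*, *Med12l* and the other purinergic genes named with values were added for context after their values were seen. Alternatives were another scaling, pseudocounts, filters, no trend, covariates, a replicate block, and leaving out mice. Scaling to each total, and the alternatives for *Pnp* and *Entpd4*, were chosen after seeing the data.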

Additional observations from a re-analysis of the deposited data

Results flagged for a closer look

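*P2ry10* stood at 593 in R9, below the 733 to 788 of the other 4 AIWG-R mice, with a gap of 0.720 of the cohort's range, above Dixon's 95% critical value for 5 values. Of 18 sets of 5 mice tested (9 receptors in each cohort), this was the 1 set past that value, and chance alone flags about 1 in 20.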

How the results depend on the processing

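Over the alternatives run, *Adora3* stayed higher and *P2rx7* lower in AIWG-P, but neither call held throughout. The number of receptors higher in AIWG-P was 0 rather than 1 with a pseudocount of 0.1 (*Adora3* unadjusted p = 0.0502 in limma), under the stricter filter of values above 50, which leaves out *Adora3* and *P2ry14*, with the label number or red cell markers as a covariate, without P8 and R9 together, and with each mouse scaled to its total. The number lower was 0 with a pseudocount of 10 and with red cell markers as a covariate. Leaving out each mouse gave 0 to 1 receptors in either direction, 0 to 2 enzymes higher and 0 to 1 lower, and 0 to 1 G protein and cAMP genes in either direction, of which 1 was lower under quantile normalization. Scaling to each total moved the median of all genes to -0.41: there *Adora3* was at 0.20, which is 0.62 above that median, *P2rx7* at -0.75, which is -0.33 relative to it, and *Pnp* reversed to -0.054, which is 0.36 above it. With cohort means removed, 1 of 90 pairs of receptor and cell type list kept an adjusted permutation p under 0.05, rather than 3. Without the 2 mice farthest from the median of each list, 2 pairs passed: *P2ry12* with platelets, and *P2rx1* with the dendritic cell list, at an r of 0.918 without P8 and R8 (adjusted permutation p = 0.0378) against 0.018 over all 10 mice. Of the dendritic cell list only 2 of 6 genes were measured, *Cd209a* and *Flt3*. A replicate block was fitted on the mouse number, shared by the cohorts for numbers 1 and 8 only. It gave 1.16 for *Adora3* (unadjusted p = 0.00620 in limma), the lowest p of *Adora3* in any alternative. There *P2rx7* was at -0.39 (unadjusted p = 0.147 in limma) and *Entpd4* at -0.41 (unadjusted p = 0.0866 in limma), and neither passed. *P2ry13* was at -0.75 (unadjusted p = 0.0119 in limma) and passed there only. The mouse numbers name mice within a cohort and do not pair them, and the block leaves 1 residual degree of freedom. The cause of these changes was not tested. The count test on whole reads with edgeR was not run, since the values could not be accepted as whole reads. *Adora3* and *P2ry14* rest on the fewest steps, with medians of 26 and 28.5.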
